A study of Saccharomyces cerevisiae with 8 samples.

Results

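Transcripts of 6 chaperone genes of the mitochondrial matrix were followed across 3 strains of Saccharomyces cerevisiae: SSC1 (YJR045C), MDJ1 (YFL016C), MGE1 (YOR232W), HSP60 (YLR259C), HSP10 (YOR020C) and HSP78 (YDR258C). They were chosen by systematic name from 6576 names on the array, with earlier results of these data known. All 6 were among the 6244 genes tested. SSZ1OEΔire1Δscj1 (n = 3) lacked IRE1 and SCJ1 and overexpressed SSZ1, SSZ1OEΔire1 (n = 2) lacked IRE1 and overexpressed SSZ1, and Δire1 (n = 3) carried the IRE1 deletion alone. Every strain therefore lacked IRE1, whose product senses unfolded proteins in the endoplasmic reticulum (ER), and no strain with IRE1 was analysed here. SSZ1 encodes an Hsp70-like protein of the ribosome-associated complex, and SCJ1 a J-protein that works with the Hsp70 in the ER lumen. The labels do not say by which promoter or vector SSZ1 was overexpressed. Cells grew at 30 °C in synthetic medium to early log phase, at an OD600 of 0.2 to 0.3, and each RNA sample was hybridised to its own Agilent array. Each sample has its own source name, but the labels do not say whether these were separate clones or cultures. The p-values therefore measure the spread between the samples, of which an unknown share may be technical. Replicates were not all alike in marker genes, since LEU2 stood at 0.48, −0.021 and 2.73 in Δire1 (log2 levels, relative to the 75th percentile of the array).

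Most mitochondrial proteins are made on cytosolic ribosomes and enter the organelle unfolded through the TOM and TIM23 translocases. In the matrix the Hsp70 Ssc1 pulls them in and folds them, with the J-protein Mdj1 stimulating its ATPase in folding and the nucleotide exchange factor Mge1 resetting it. The chaperonin Hsp60 with its lid Hsp10 then encloses and folds many of these proteins, and Hsp78, a ClpB-type AAA+ protein, reverses aggregation together with Ssc1. In yeast, heat shock factor Hsf1 is known to drive several of these genes, and Msn2 and Msn4, the general stress factors, drive others that respond to heat and starvation.

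Levels are given on the log2 scale as processed signal relative to the 75th percentile of each array, so a gene at 0 was as bright as the 75th percentile probe of its array. A different probe reports each gene, so levels are compared between strains and not between genes. Differences are log2 differences between group means from a limma fit over all 8 arrays, with a standard error (SE) and a p-value adjusted over all 6244 genes (Benjamini-Hochberg, two-sided). A gene is said to have risen or fallen where this adjusted p was under 0.05. Each member was read by 7 to 10 spots per array that were all well above background.

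The targeted genes followed the labels. SSZ1 was 5.29-fold higher in SSZ1OEΔire1Δscj1 (adjusted p = 0.000182) and 7.30-fold higher in SSZ1OEΔire1 (adjusted p = 0.000674) than in Δire1. On the SSZ1OEΔire1Δscj1 arrays SCJ1 was not well above background, and IRE1 was not well above background in any strain. Arrays differed in brightness, with a 75th percentile signal of 9041 to 10016.5 on the SSZ1OEΔire1Δscj1 arrays, 5037 and 6291 on the SSZ1OEΔire1 arrays and 5417 to 7152 on the Δire1 arrays. Overall brightness and the SSZ1OEΔire1Δscj1 strain therefore cannot be told apart. All arrays lay on 1 slide, with both SSZ1OEΔire1 arrays in slide row 1, all SSZ1OEΔire1Δscj1 arrays in row 2, and Δire1 split over both rows. Within Δire1, replicate 2 stood apart, with a median absolute difference per gene of 0.196 to 0.214 from the other 2 arrays. Those 2 differed from each other by 0.056. Replicate 2 was about as far from the SSZ1OEΔire1 arrays (0.188 and 0.213) as from its own strain. Replicates of the other strains differed by 0.096 to 0.141.

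**Figure D1:**
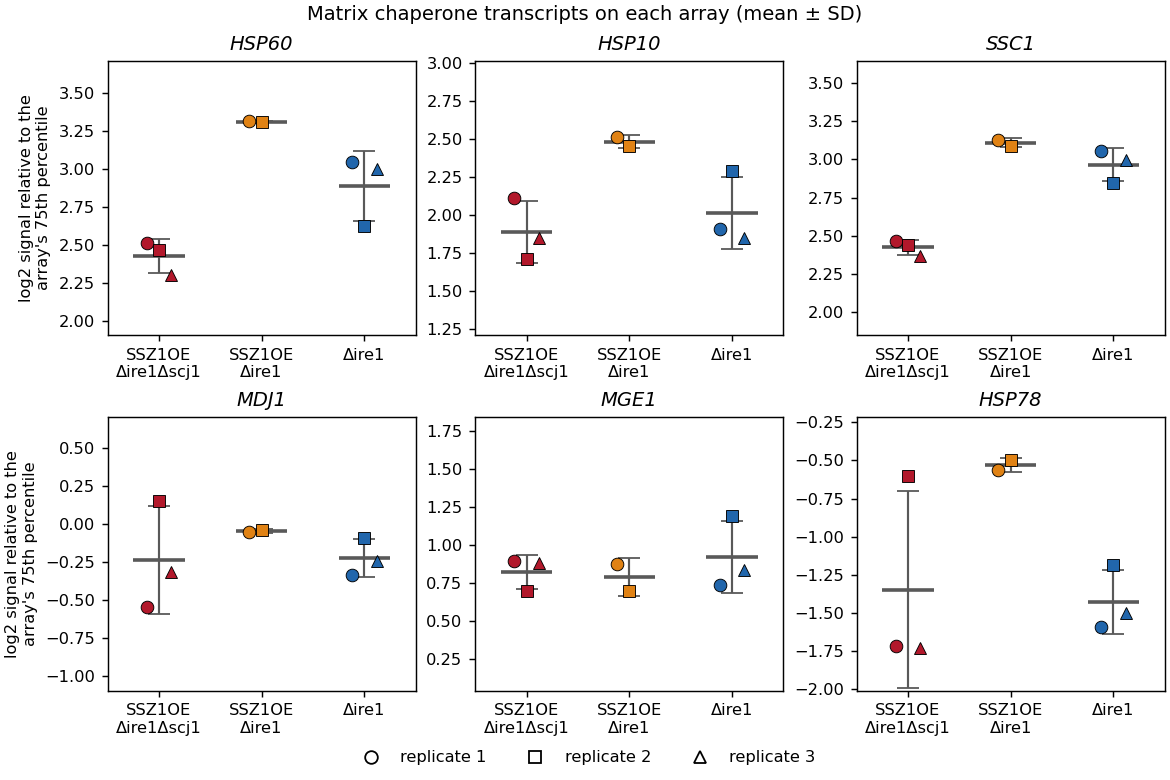
Level of each matrix chaperone transcript on each array, in log2 units from the 75th percentile of that array, for SSZ1OEΔire1Δscj1 (n = 3), SSZ1OEΔire1 (n = 2) and Δire1 (n = 3). Symbols mark replicates, and bars show the mean ± SD; every panel has its own zero but the same height in log2 units. SSC1 and HSP60 lay lowest on the 3 SSZ1OEΔire1Δscj1 arrays, while for HSP78 and MDJ1 1 SSZ1OEΔire1Δscj1 array lay far above the other 2.

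SSC1, the Hsp70 gene, had the smallest pooled residual SD within strains of the 6 genes, 0.077, against 0.13 for the median gene. It stood at 2.46, 2.44 and 2.36 in SSZ1OEΔire1Δscj1, at 3.13 and 3.09 in SSZ1OEΔire1, and at 3.06, 2.84 and 3.00 in Δire1. The 3 SSZ1OEΔire1Δscj1 arrays were the lowest of all 8 and overlapped neither other strain, and the 2 SSZ1OEΔire1 arrays lay just above the highest Δire1 array. SSC1 fell in SSZ1OEΔire1Δscj1, by 0.54 against Δire1 (SE 0.076, adjusted p = 0.0026) and by 0.69 against SSZ1OEΔire1 (SE 0.085, adjusted p = 0.00972). These are levels 1.46-fold and 1.61-fold lower. SSZ1OEΔire1 differed from Δire1 by 0.14, with a 95% interval from −0.054 to 0.34 (adjusted p = 0.309).

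The 2 partner genes of SSC1 passed the test in none of the 3 comparisons. MDJ1, the J-protein gene, stood at −0.55, 0.15 and −0.32 in SSZ1OEΔire1Δscj1, at −0.056 and −0.040 in SSZ1OEΔire1, and at −0.33, −0.092 and −0.25 in Δire1. SSZ1OEΔire1Δscj1 replicate 2 was the highest array of all and replicate 1 the lowest, so this strain spanned both of the others. The differences were −0.012 for SSZ1OEΔire1Δscj1 against Δire1 (95% interval −0.40 to 0.38), 0.18 for SSZ1OEΔire1 against Δire1 (−0.26 to 0.61) and −0.19 for SSZ1OEΔire1Δscj1 against SSZ1OEΔire1 (−0.63 to 0.25). None passed the test (adjusted p = 0.960, 0.580 and 0.525).

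MGE1, the exchange factor gene, varied least over the 8 arrays, with an SD of 0.16 over all of them. It stood at 0.89, 0.69 and 0.88 in SSZ1OEΔire1Δscj1, at 0.87 and 0.70 in SSZ1OEΔire1, and at 0.74, 1.19 and 0.84 in Δire1. The strains overlapped, and the highest array was Δire1 replicate 2. SSZ1OEΔire1Δscj1 differed from Δire1 by −0.097 (95% interval −0.40 to 0.20, adjusted p = 0.578). SSZ1OEΔire1 differed from Δire1 by −0.13 (−0.47 to 0.20, adjusted p = 0.581), the only one of the 6 genes with a negative value in that comparison. Between the 2 overexpressing strains the difference was 0.037 (−0.30 to 0.37, adjusted p = 0.885).

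HSP60, the chaperonin gene, separated all 3 strains array by array. It stood at 2.51, 2.47 and 2.30 in SSZ1OEΔire1Δscj1, at 3.31 and 3.31 in SSZ1OEΔire1, and at 3.04, 2.62 and 3.00 in Δire1. Both SSZ1OEΔire1 arrays were above every Δire1 array, and every SSZ1OEΔire1Δscj1 array was below every Δire1 array, with Δire1 replicate 2 the nearest to them. HSP60 fell in SSZ1OEΔire1Δscj1, by 0.46 against Δire1 (SE 0.12, adjusted p = 0.0219) and by 0.88 against SSZ1OEΔire1 (SE 0.14, adjusted p = 0.0143), which are 1.38-fold and 1.85-fold lower levels. SSZ1OEΔire1 was 0.42 above Δire1 (SE 0.14, 1.34-fold), and this did not pass the test (adjusted p = 0.0868).

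HSP10, the gene of the lid, was highest on the 2 SSZ1OEΔire1 arrays. It stood at 2.11, 1.71 and 1.85 in SSZ1OEΔire1Δscj1, at 2.51 and 2.45 in SSZ1OEΔire1, and at 1.91, 2.29 and 1.85 in Δire1. The SSZ1OEΔire1Δscj1 and Δire1 arrays overlapped, with a difference of −0.12 (SE 0.14, adjusted p = 0.519). SSZ1OEΔire1 lay 0.47 above Δire1 (SE 0.16, adjusted p = 0.104), and SSZ1OEΔire1Δscj1 lay 0.59 below SSZ1OEΔire1 (difference −0.59, SE 0.16, adjusted p = 0.0539). Neither passed the test. The chaperonin and its lid thus had a called difference from Δire1 in SSZ1OEΔire1Δscj1 for HSP60 and not for HSP10. That the 2 genes differed in this was not tested.

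HSP78, the disaggregase gene, showed the widest range of the 6 genes over the 8 arrays, 1.24. It stood at −1.72, −0.60 and −1.73 in SSZ1OEΔire1Δscj1, at −0.56 and −0.49 in SSZ1OEΔire1, and at −1.60, −1.19 and −1.50 in Δire1. SSZ1OEΔire1Δscj1 replicate 2 lay just below the 2 SSZ1OEΔire1 arrays, while replicates 1 and 3 were the lowest arrays of all. The residual SD of 0.43 was larger than that of 96.2% of the genes tested. It pools the 3 strains, whose SDs were 0.65 in SSZ1OEΔire1Δscj1, 0.048 in SSZ1OEΔire1 and 0.21 in Δire1. SSZ1OEΔire1 was 0.90 above Δire1 (SE 0.33, 95% interval 0.14 to 1.66, 1.87-fold), which did not pass the test (adjusted p = 0.120). In a fit with only the arrays of these 2 strains the SE was 0.14 and the difference passed (limma adjusted p = 0.034). SSZ1OEΔire1Δscj1 differed by 0.080 from Δire1 (SE 0.29, adjusted p = 0.845) and by −0.82 from SSZ1OEΔire1 (SE 0.33, adjusted p = 0.133).

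**Figure D2:**
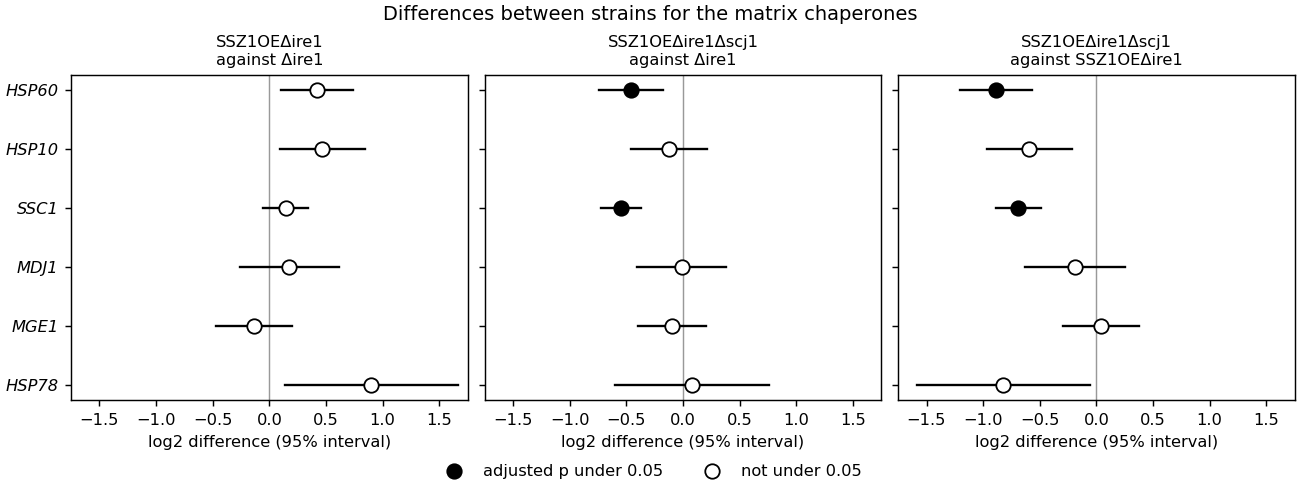
Log2 differences between strains for the matrix chaperone genes, with 95% intervals from the limma fit over all 8 arrays; filled points had an adjusted p under 0.05. SSC1 and HSP60 are filled in both comparisons of SSZ1OEΔire1Δscj1, at −0.54 and −0.46 against Δire1 and at −0.69 and −0.88 against SSZ1OEΔire1, and no gene is filled in SSZ1OEΔire1 against Δire1.

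By their labels, SSZ1OEΔire1 and Δire1 differ in SSZ1 overexpression. Of the 6 chaperone genes limma called 0, where it called 11.4% of all genes tested (7.48% higher and 3.88% lower), and 3 had an unadjusted p under 0.05 (HSP60, HSP10 and HSP78). The differences were positive for 5 genes, with a median of 0.30 against a median of 0.026 over all genes. In those 5 genes both SSZ1OEΔire1 arrays lay above all Δire1 arrays. Of all genes, 46.4% had arrays that did not overlap, 26.9% with SSZ1OEΔire1 above and 19.5% with it below. Calls depended on which arrays entered the fit. Without SSZ1OEΔire1Δscj1 replicate 2, HSP78 passed with the same difference (0.90, adjusted p = 0.0122), and without Δire1 replicate 2, HSP10 passed (0.60, adjusted p = 0.0228).

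SSZ1OEΔire1Δscj1 and Δire1 differ by label in SSZ1 overexpression and SCJ1 deletion together. SSC1 and HSP60 fell and 0 of the 6 genes rose, where 38.3% of all genes were called, 21.3% higher and 16.9% lower. The median of the 6 was −0.11, against 0.019 over all genes. With 1 array left out it ran from −0.25 (without SSZ1OEΔire1Δscj1 replicate 2) to 0.024 (without Δire1 replicate 2), and with slide row as a block it was −0.0011, so its sign depended on single arrays. The arrays of the 2 strains did not overlap for 2 genes, both lower. Of all genes, 50.6% did not overlap, 27.3% higher and 23.3% lower. The count of 2 of 6 is thus near the share of all genes called. The HSP60 call ended without Δire1 replicate 1 (difference −0.38, adjusted p = 0.0722), without Δire1 replicate 3 (−0.41, adjusted p = 0.0786) and without SSZ1OEΔire1Δscj1 replicate 3 (−0.40, adjusted p = 0.0681). SSC1 passed without each array in turn, with adjusted p between 0.00123 and 0.0153.

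SSZ1OEΔire1Δscj1 and SSZ1OEΔire1 differ by label in SCJ1 deletion. Their arrays also lay in different slide rows and differed in brightness, so SCJ1 deletion cannot be told apart from either. SSZ1 itself differed by −0.47 between these strains, which did not pass the test, and markers of mating type differed too. Here too SSC1 and HSP60 fell and 0 of the 6 genes rose, where 11.9% of all genes were called, 6.28% higher and 5.57% lower. The median of the 6 was −0.64, against −0.0046 over all genes, and the arrays of SSZ1OEΔire1Δscj1 lay below those of SSZ1OEΔire1 for 4 genes (SSC1, HSP60, HSP10 and HSP78). Of all genes, 59% did not overlap, 29.5% higher and 29.5% lower. Leaving out either SSZ1OEΔire1 array leaves 1 array in that strain, which is then taken to vary like the arrays of the other strains. Without SSZ1OEΔire1 replicate 1 neither call held, at differences of −0.67 for SSC1 (SE 0.12, adjusted p = 0.0976) and −0.88 for HSP60 (SE 0.19, adjusted p = 0.120), and 3 genes of all were called. Without SSZ1OEΔire1 replicate 2, SSC1 passed (−0.71) and HSP60 did not (−0.89, SE 0.19, adjusted p = 0.0552). The differences thus stayed near those with all arrays and the standard errors grew. Leaving out other arrays added calls. HSP10 passed without Δire1 replicate 2 (adjusted p = 0.0209), and HSP78 passed without SSZ1OEΔire1Δscj1 replicate 2 (difference −1.20, adjusted p = 0.0215). The 3 comparisons share their arrays, so their values are not independent of each other.

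The calls lay among the brightest transcripts. HSP60, HSP10 and SSC1 were in the brightest 10% of all genes, and MGE1, MDJ1 and HSP78 were not. In SSZ1OEΔire1Δscj1 against Δire1, 30 of the 625 genes of that class rose and 307 fell, with a median difference of −0.29. Against SSZ1OEΔire1 the same class had 16 that rose and 125 that fell, with a median of −0.23. In SSZ1OEΔire1 against Δire1 its median was −0.055, with 24 that rose and 37 that fell. SSC1 and HSP60 thus fell where many transcripts of like brightness fell, on the brightest arrays, and the part of brightness in their differences was not tested. Before scaling, the HSP60 signals of 55646, 55427 and 44589 in SSZ1OEΔire1Δscj1 overlapped the 44701, 41737 and 57101 in Δire1. The SSC1 signals of 53824, 54572 and 46533 in SSZ1OEΔire1Δscj1 likewise overlapped the 45056, 48736 and 57110 in Δire1. They also overlapped the SSC1 signals of 55113 and 42942 in SSZ1OEΔire1.

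The size of these differences depended on the scaling. With quantile normalization SSC1 still fell against Δire1 (−0.28, adjusted p = 0.0201), while HSP60 did not pass (−0.19, adjusted p = 0.211). Both remained called against SSZ1OEΔire1 with quantile normalization. With scaling on 7 spike-in probes no chaperone gene was called in any comparison. That scaling moved the median of all genes to 0.44 in SSZ1OEΔire1Δscj1 against Δire1, to 0.13 in SSZ1OEΔire1 against Δire1 and to 0.31 in SSZ1OEΔire1Δscj1 against SSZ1OEΔire1. Relative to this shift, SSC1 stood at −0.56 and HSP60 at −0.48 against Δire1, and at −0.68 and −0.88 against SSZ1OEΔire1. Spike-in scaling moves every gene of a comparison by the same amount, so these values equal those without it and test nothing further.

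**Figure D3:**
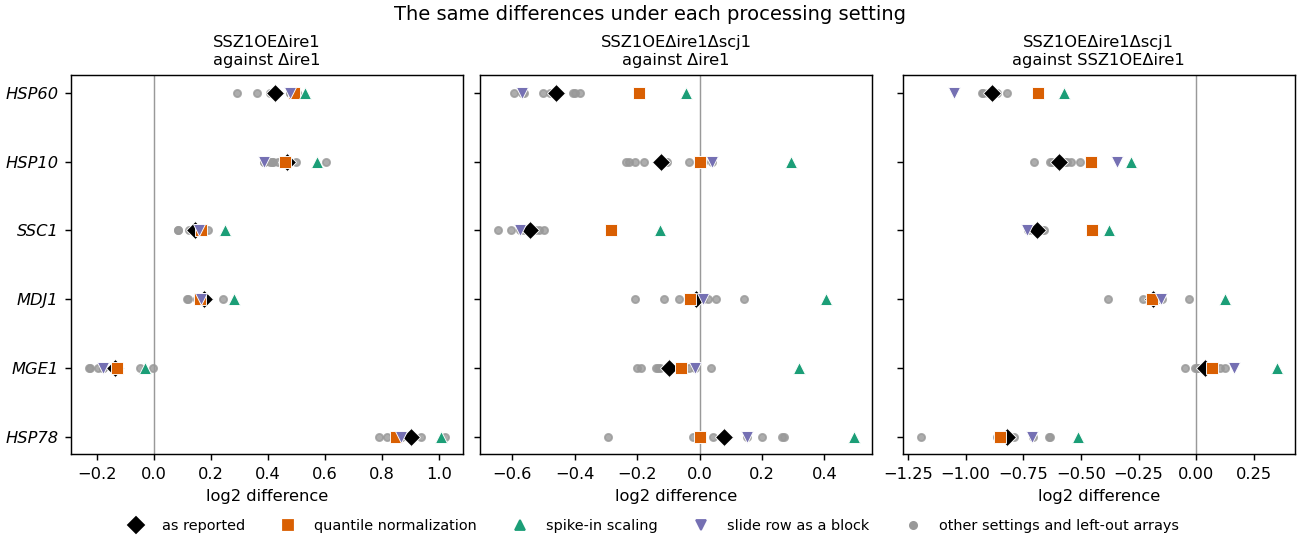
Log2 difference of each matrix chaperone gene under each processing setting; black diamonds are the reported values, coloured symbols are quantile normalization, spike-in scaling and slide row as a block, and grey points are the other settings and left-out arrays. In SSZ1OEΔire1Δscj1 against Δire1 the SSC1 and HSP60 values stay below 0 in all settings but move towards 0 with quantile normalization (−0.28 and −0.19) and spike-in scaling (−0.13 and −0.044), and the values of the other 4 genes lie on both sides of 0.

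The slide row could be set against the strain only in part. Within row 2, which holds Δire1 replicate 3 and the 3 SSZ1OEΔire1Δscj1 arrays, SSC1 (−0.57, adjusted p = 0.0353) and HSP60 (−0.57, adjusted p = 0.0484) both passed against Δire1, a test that takes the single Δire1 array to vary as the others do. With row as a block over all arrays, SSC1 passed (adjusted p = 0.0293) and HSP60 did not (−0.57, adjusted p = 0.0664). In this fit too the differences rest on the single Δire1 array of row 2, and only the spread comes from all arrays. No row holds both overexpressing strains. With the row as a block, neither SSC1 (−0.74) nor HSP60 (−1.05) passed between them, each with adjusted p = 0.188, and 2 genes were called in all.

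The likeness of the 6 genes to each other over the arrays varied from pair to pair. Each gene was centred on its own mean and pairs were compared by their root mean square distance over the 8 arrays. HSP60 and SSC1 were the closest pair at 0.13, and HSP78 and MGE1 the farthest apart at 0.57. HSP60 and HSP10, the 2 parts of the chaperonin machine, stood 0.30 apart. SSC1 lay 0.33 from MDJ1 and 0.35 from MGE1. The mean of the 6 centred values was −0.25, −0.056 and −0.31 in SSZ1OEΔire1Δscj1, 0.34 and 0.30 in SSZ1OEΔire1, and −0.063, 0.078 and −0.044 in Δire1. It was highest on both SSZ1OEΔire1 arrays and lowest on SSZ1OEΔire1Δscj1 replicates 1 and 3.

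Of 5897 other genes well above background on all arrays, the 5 nearest to this mean pattern were PUF2 at a distance of 0.082, SGT2 at 0.082, YML082W at 0.092, YLR179C at 0.097 and RER2 at 0.097. The median distance over all genes was 0.28. The members themselves lay farther from their mean than these 5 genes, which were picked as the nearest of 5897. That comparison therefore does not measure how alike the members are. Their distances were 0.18 (HSP10), 0.19 (MDJ1), 0.19 (SSC1), 0.22 (HSP60), 0.27 (MGE1) and 0.35 (HSP78). PUF2 encodes an RNA-binding protein of the Puf family, SGT2 a co-chaperone of tail-anchored protein insertion, and RER2 a prenyltransferase of dolichol synthesis. Only 1 of the 5 stayed among the nearest 5 with quantile normalization, and 3 did with another background correction.

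HSP78 and MDJ1 were high together with stress genes on SSZ1OEΔire1Δscj1 replicate 2. On that array HSP78 lay 0.75 and MDJ1 0.39 above the mean of their strain. There 19 of 20 Msn2/Msn4 stress genes and 14 of 17 cytosolic Hsf1 genes were the highest of the 3 SSZ1OEΔire1Δscj1 arrays, with median deviations of 0.52 and 0.41. Of all genes, 39.8% were highest on that array. HSP60, SSC1, HSP10 and MGE1 deviated there by 0.041, 0.019, −0.18 and −0.13. In Δire1, replicate 2 was highest for HSP10, MDJ1, HSP78 and MGE1 and lowest for HSP60 and SSC1. On it 13 of 17 Hsf1 genes were the highest of the 3 Δire1 arrays (median deviation 0.20), while of the 20 Msn2/Msn4 genes 4 were highest and 9 lowest (median deviation −0.019). Of all genes, 38.7% were highest and 49.3% lowest on it. The part of this array-to-array variation in the differences between strains was not tested beyond leaving the arrays out. Without both of these arrays, a setting chosen after the data were seen, 2 of the 6 genes rose in SSZ1OEΔire1 against Δire1 (HSP78 by 1.02, adjusted p = 0.00141, and HSP10 by 0.60, adjusted p = 0.0118), where 31.6% of all genes were called. HSP78 had deviated by 0.75 and 0.24 on the arrays left out, so its SE in this comparison was 0.060, against 0.33 with all arrays. The adjusted p-values of this setting thus depend on the choice of arrays. In the same setting SSC1 and HSP60 fell in SSZ1OEΔire1Δscj1 against Δire1, where 51.8% of all genes were called. Between the overexpressing strains 5 genes fell, all but MGE1, where 24.5% of all genes were called. The counts of 2 of 6 are thus near or below the share of all genes called in that setting.

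**Figure D4:**
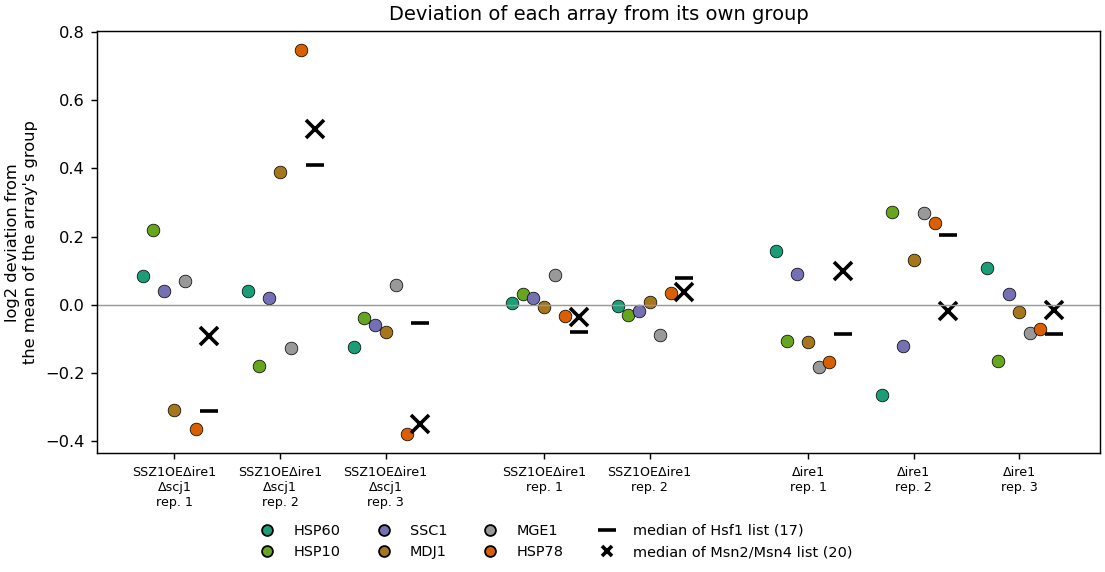
Deviation of each matrix chaperone gene from the mean of its own strain on each array (log2), beside the median deviation of 17 cytosolic Hsf1 genes (bar) and 20 Msn2/Msn4 stress genes (cross). On SSZ1OEΔire1Δscj1 replicate 2, HSP78 (0.75) and MDJ1 (0.39) lie with the Msn2/Msn4 (0.52) and Hsf1 (0.41) lists, while HSP60 and SSC1 lie near 0.

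Other genes of protein import and folding in mitochondria were read from lists. Of all genes, 38.3% were called in SSZ1OEΔire1Δscj1 against Δire1 (21.3% higher and 16.9% lower). The shares were 11.4% in SSZ1OEΔire1 against Δire1 and 11.9% between the overexpressing strains. Of 12 genes of the import motor and other matrix folding factors, 0 rose and 4 fell in SSZ1OEΔire1Δscj1 against Δire1 (median −0.10). This was 33.3% of the list. ECM10, a close relative of SSC1 whose probe could share signal with it, fell by 0.47 (SE 0.15, adjusted p = 0.0427). This call held without SSZ1OEΔire1Δscj1 replicate 2 or either SSZ1OEΔire1 array, and ended without any other array (adjusted p up to 0.134). PAM18, the J-protein of the motor, fell by 0.43 (SE 0.091, adjusted p = 0.0096). In SSZ1OEΔire1 against Δire1, and in SSZ1OEΔire1Δscj1 against SSZ1OEΔire1, limma called 0 of the 12 (4 and 3 at an unadjusted p under 0.05). Without Δire1 replicate 2 the counts were 2 and 3. That fit called 24.1% of all genes in the first of these comparisons. In the second, up to 1526 of the 6244 genes were called with 1 array left out. In SSZ1OEΔire1Δscj1 against Δire1 the list's count was 2 without Δire1 replicate 1 or 3 or SSZ1OEΔire1Δscj1 replicate 1 or 3. With 1 array left out, 1438 to 3166 of all genes were called there.

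Of 27 translocase genes, 1 rose and 8 fell in SSZ1OEΔire1Δscj1 against Δire1 (median −0.15). This was 33.3% of the list, where 38.3% of all genes were called, 21.3% higher and 16.9% lower. TOM70, a receptor of the outer membrane, fell by 0.56 (SE 0.093, adjusted p = 0.00448), and MIM1, needed for insertion of outer membrane proteins, rose by 0.42 (SE 0.094, adjusted p = 0.0117). Against SSZ1OEΔire1, TIM23, the channel of the inner membrane, fell by 0.52 (adjusted p = 0.0401) and TIM18, of the carrier translocase, by 0.30 (adjusted p = 0.0415). With 1 array left out, the TIM23 call held only without Δire1 replicate 1 or 2 and the TIM18 call only without Δire1 replicate 2, with adjusted p up to 0.262 and 0.241 without other arrays. Limma called 0 of the 27 in SSZ1OEΔire1 against Δire1 (4 unadjusted). Without Δire1 replicate 2, 5 were called in SSZ1OEΔire1 against Δire1 and 8 in SSZ1OEΔire1Δscj1 against SSZ1OEΔire1. That fit called 24.1% of all genes in the first of these comparisons. In the second, up to 1526 of the 6244 genes were called with 1 array left out. Without Δire1 replicate 3, 5 were called in SSZ1OEΔire1Δscj1 against Δire1. With 1 array left out, 1438 to 3166 of all genes were called there.

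Of 15 genes of matrix and inner membrane proteases and prohibitins, 2 rose and 3 fell in SSZ1OEΔire1Δscj1 against Δire1 (median −0.10). This was 33.3% of the list, where 38.3% of all genes were called, 21.3% higher and 16.9% lower. MAS2, a subunit of the presequence-cleaving peptidase, fell by 0.44 (SE 0.086, adjusted p = 0.00739). IMP1, which encodes a peptidase of the inner membrane, rose by 0.67 (SE 0.18, adjusted p = 0.0241). Leaving out replicate 1 or 3 of either strain ended this call (adjusted p up to 0.0818). Only PCP1, a rhomboid protease gene, rose in SSZ1OEΔire1 against Δire1 (0.30, adjusted p = 0.0406), a call kept, with 1 array left out, only without Δire1 replicate 2 or SSZ1OEΔire1Δscj1 replicate 2 (adjusted p up to 0.262 without others). Between the overexpressing strains limma called 0 of 15 (6 unadjusted). With 1 array left out, the number of these 15 genes called ran from 1 to 10 in SSZ1OEΔire1Δscj1 against Δire1. It ran from 0 to 6 in SSZ1OEΔire1 against Δire1 and from 0 to 5 in SSZ1OEΔire1Δscj1 against SSZ1OEΔire1. Each was highest without Δire1 replicate 2. Of all 6244 genes, up to 3166, 1504 and 1526 were called in these comparisons with 1 array left out.

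Genes for large subunit proteins of the mitochondrial ribosome, which also have to be imported, gave a comparison set outside folding. Of 34 genes, 0 rose and 12 fell in SSZ1OEΔire1Δscj1 against Δire1 (median −0.21). This was 35.3% of the list, where 38.3% of all genes were called, 21.3% higher and 16.9% lower. MRPL3 fell by 0.59 (SE 0.13, adjusted p = 0.0116) and MRPL4 by 0.58 (SE 0.14, adjusted p = 0.0135). MRPL4 missed the threshold without Δire1 replicate 3 or SSZ1OEΔire1Δscj1 replicate 1 (highest adjusted p = 0.0517). The count was 7 without Δire1 replicate 1, Δire1 replicate 3 or SSZ1OEΔire1Δscj1 replicate 1. With 1 array left out, 1438 to 3166 of all genes were called there. In SSZ1OEΔire1 against Δire1 only MRPL36 fell (−0.35, adjusted p = 0.0406), and in SSZ1OEΔire1Δscj1 against SSZ1OEΔire1 only MRPL17 (−0.35, adjusted p = 0.0409). With 1 array left out, both calls were kept only without Δire1 replicate 2, and reached adjusted p = 0.271 and 0.272 without others. Without Δire1 replicate 2 the list had 2 calls in SSZ1OEΔire1 against Δire1 and 8 in SSZ1OEΔire1Δscj1 against SSZ1OEΔire1. That fit called 24.1% of all genes in the first of these comparisons. In the second, up to 1526 of the 6244 genes were called with 1 array left out.

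**Figure D5:**
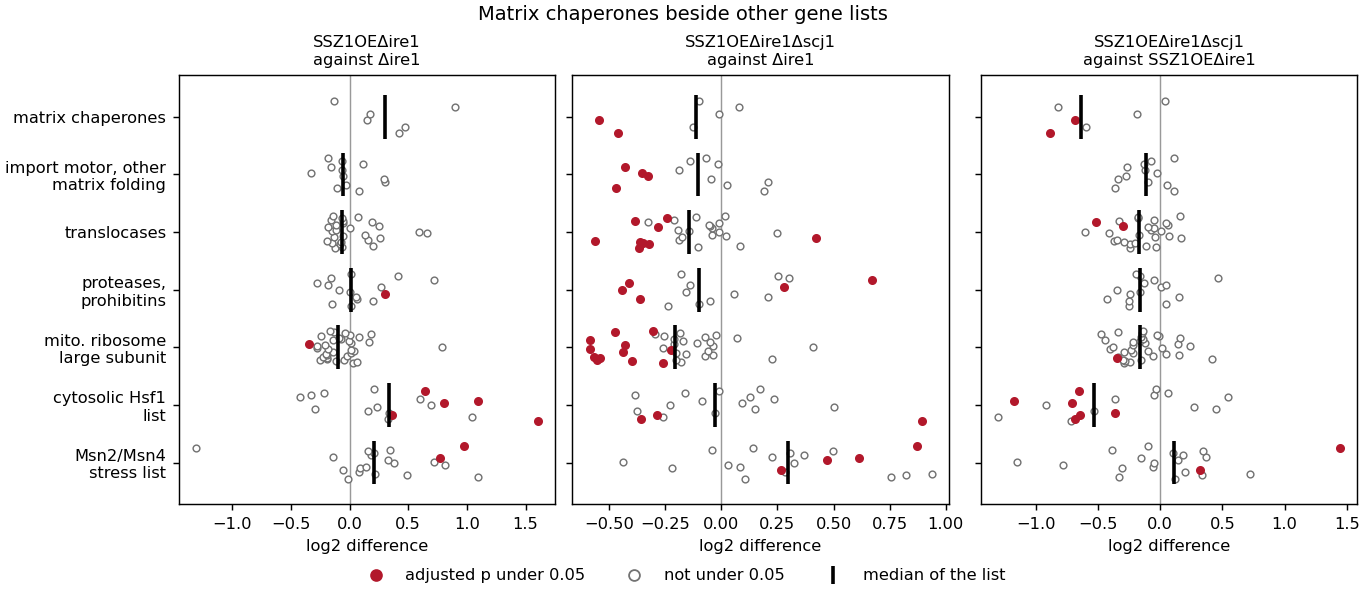
Log2 differences of the matrix chaperone genes beside genes of related lists in the 3 comparisons; filled points had an adjusted p under 0.05 and the bar marks each list's median. The matrix chaperones and the cytosolic Hsf1 list have positive medians in SSZ1OEΔire1 against Δire1 (0.30 and 0.33). Their medians are negative in SSZ1OEΔire1Δscj1 against SSZ1OEΔire1 (−0.64 and −0.53). The Msn2/Msn4 median is positive too in SSZ1OEΔire1 against Δire1 (0.21), 0.30 in SSZ1OEΔire1Δscj1 against Δire1 and 0.11 between the overexpressing strains. The import, protease and ribosome lists have medians between −0.21 and 0.013.

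The cytosolic Hsf1 list holds chaperone genes outside mitochondria. Of its 17 genes, 5 rose and 0 fell in SSZ1OEΔire1 against Δire1 (median 0.33), where 7.48% of all genes rose and 3.88% fell. In SSZ1OEΔire1Δscj1 against Δire1, 1 rose and 2 fell (median −0.030), where 21.3% of all genes rose and 16.9% fell. Against SSZ1OEΔire1, 0 rose and 6 fell in SSZ1OEΔire1Δscj1 (median −0.53), where 6.28% of all genes rose and 5.57% fell. AHA1, an activator of Hsp90, rose by 1.09 in SSZ1OEΔire1 against Δire1 (SE 0.11, adjusted p = 0.00332) and fell by 1.18 in SSZ1OEΔire1Δscj1 against SSZ1OEΔire1 (SE 0.11, adjusted p = 0.00563). SSA1, a cytosolic Hsp70 gene whose sequence is nearly that of SSA2, rose by 1.61 in SSZ1OEΔire1 against Δire1 (SE 0.28, adjusted p = 0.0151). It also rose by 0.89 in SSZ1OEΔire1Δscj1 against Δire1 (SE 0.25, adjusted p = 0.0286), while SSA2 fell there by 0.36 (adjusted p = 0.0237). Probes of this pair could share signal. STI1, a co-chaperone linking Hsp70 and Hsp90, fell by 0.71 between the overexpressing strains (adjusted p = 0.0231). In SSZ1OEΔire1 against Δire1 the list had 3 calls without Δire1 replicate 3, where 4.04% of all genes were called. Its median there was 0.41 without SSZ1OEΔire1 replicate 1 and 0.32 without replicate 2. Those fits leave 1 array in that strain and had fewer calls. In SSZ1OEΔire1Δscj1 against Δire1 the list had 0 calls without Δire1 replicate 3 or SSZ1OEΔire1Δscj1 replicate 1, and 1 without Δire1 replicate 1. With 1 array left out, 1438 to 3166 of all genes were called in this comparison. Between the overexpressing strains it had 1 without either SSZ1OEΔire1 array and 2 without SSZ1OEΔire1Δscj1 replicate 1. The SSA1 call against Δire1 ended in SSZ1OEΔire1 without SSZ1OEΔire1 replicate 2 (adjusted p = 0.127) or Δire1 replicate 3. In SSZ1OEΔire1Δscj1 it ended without Δire1 replicate 2 or 3 or SSZ1OEΔire1Δscj1 replicate 1 or 2 (up to 0.0884), and the SSA2 call without Δire1 replicate 1 or 3 or SSZ1OEΔire1Δscj1 replicate 1 (up to 0.0878). The STI1 call ended without SSZ1OEΔire1 replicate 1 (−0.81, adjusted p = 0.130) or 2 (−0.61, adjusted p = 0.107), each leaving 1 array in that strain, and without SSZ1OEΔire1Δscj1 replicate 1 (adjusted p = 0.0714). Its difference ran from −0.84 to −0.60 over all left-out arrays.

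Of 20 Msn2/Msn4 stress genes, 2 rose in SSZ1OEΔire1 against Δire1 (median 0.21), where 7.48% of all genes rose. In SSZ1OEΔire1Δscj1 against Δire1, 4 rose (median 0.30), where 21.3% of all genes rose. Between SSZ1OEΔire1Δscj1 and SSZ1OEΔire1, 2 rose (median 0.11), where 6.28% of all genes rose. Of the 20 genes, 0 fell in any of these comparisons. PNC1, a nicotinamidase gene, rose by 0.87 in SSZ1OEΔire1Δscj1 against Δire1 (adjusted p = 0.00373) and by 0.97 in SSZ1OEΔire1 against Δire1 (adjusted p = 0.0112, or 0.0957 without SSZ1OEΔire1 replicate 2). Between the overexpressing strains YGP1, a stress-induced secreted glycoprotein gene, rose by 1.45 (adjusted p = 0.0426, up to 0.259 with 1 array left out). With 1 array left out, 2 to 6 of these 20 genes were called in SSZ1OEΔire1Δscj1 against Δire1. Of all genes, 1438 to 3166 were called there. The list's number was lowest without SSZ1OEΔire1Δscj1 replicate 1 or 2 or Δire1 replicate 3 and highest without SSZ1OEΔire1Δscj1 replicate 3. In SSZ1OEΔire1 against Δire1 it was highest, at 4, without SSZ1OEΔire1Δscj1 replicate 2, where 11.4% of all genes were called. Between the overexpressing strains it was 0 without Δire1 replicate 3 or SSZ1OEΔire1Δscj1 replicate 1. Calls in the last 2 comparisons also depended on the SSZ1OEΔire1 arrays. Without SSZ1OEΔire1 replicate 2, which leaves 1 array in that strain, the list's median was 0.15 in SSZ1OEΔire1 against Δire1. Without SSZ1OEΔire1Δscj1 replicate 2, on which most of these genes were highest, the list's median was 0.11 against Δire1, with 1 that rose and 1 that fell, and −0.16 against SSZ1OEΔire1, with 2 that fell.

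Markers of mating type differed between strains and are given because they could mark different cells. Of all genes, 21.3% rose and 16.9% fell in SSZ1OEΔire1Δscj1 against Δire1. The shares were 6.28% and 5.57% against SSZ1OEΔire1, and 7.48% and 3.88% in SSZ1OEΔire1 against Δire1. Of 7 a-cell genes 6 fell in SSZ1OEΔire1Δscj1 against Δire1, with a summed signal of 3.93 to 5.22 times the 75th percentile in SSZ1OEΔire1Δscj1, 6.23 and 8.20 in SSZ1OEΔire1 and 7.49 to 7.83 in Δire1. Of 4 alpha-cell genes 2 rose there (STE3, the a-factor receptor gene, by 3.07 and the alpha-factor gene MF(ALPHA)1 by 2.08, adjusted p = 0.000105 and 0.0052), with a summed signal of 0.29 to 0.32 in SSZ1OEΔire1Δscj1, 0.16 and 0.21 in SSZ1OEΔire1 and 0.14 to 0.16 in Δire1. Between the overexpressing strains 4 a-cell genes fell and 2 alpha-cell genes rose, and limma called 0 of either list without SSZ1OEΔire1 replicate 1, a fit with 1 array of that strain. In that fit AGA2, an agglutinin subunit gene, stood at −0.72 (−0.75 with all arrays), BAR1, the alpha-factor protease gene, at −0.74 (−0.98), STE3 at 0.68 (0.95) and MF(ALPHA)1 at 1.08 (1.65). For SSZ1OEΔire1 against Δire1, limma called 0 a-cell genes (1 unadjusted) and 1 alpha-cell gene, STE3, which rose by 2.12 (adjusted p = 0.00214). The 4 alpha-cell genes did not all move alike. In SSZ1OEΔire1Δscj1 against Δire1, 3 had positive differences, and the lowest stood at −0.42. In SSZ1OEΔire1 against Δire1, 2 had positive differences, with a median of 0.15 and the lowest at −0.40. The labels give no mating type. The part of these differences in the chaperone levels was not tested.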

How the data were processed

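RNA from 8 samples was labelled with Cy3 and read on 8 one-colour Agilent arrays of 1 slide. The authors produced spot intensity values with Agilent Feature Extraction 10.7.1.1 (submitters' processing notes), per the file headers background-subtracted and not scaled between arrays. The deposited log2 values, whose scale and centring are not stated, matched the scaled signals described next after each probe was centred on its median (r = 1 on every array; column medians −0.0322 to 0.0107), and served as an alternative. From these intensities the log2 processed signal was averaged over a probe's spots without outlier spots (1.10% to 1.57%) and the 75th percentile of all non-control probes on that array was subtracted. A gene was represented by its brightest probe and tested where over 0.5 of its spots were well above background on every array of at least 1 group. Of 6576 names, 5903 matched the RefSeq gene table of assembly R64. limma 3.58.1 in R 4.3.3 fitted 3 group means with eBayes; the steps were tested on simulated data. Between 90.5% and 95.9% of spots were well above background and 0 were saturated, and the number of arrays limits the precision. Same-numbered replicates did not deviate together in all pairs (r from −0.038 to 0.206), so the numbers were taken as names only. The members, lists and alternatives were chosen with earlier results of these data known. Named besides the members were the targeted genes, up to 2 called genes per list and comparison with the largest difference, and the 5 genes nearest to the members' mean pattern. Promoter and protein sequences were not used here.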

Additional observations from a re-analysis of the deposited data

How the results depend on the processing

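The fit with the replicate block called 0 chaperone genes and 288 of all genes in SSZ1OEΔire1 against Δire1. It called 2 and 2044 in SSZ1OEΔire1Δscj1 against Δire1, and 2 and 594 between the overexpressing strains. In SSZ1OEΔire1 against Δire1 the chaperone count was 1 with quantile normalization (HSP60) and with only the arrays of the groups compared (HSP78), 0 to 1 with 1 array left out, and 2 without Δire1 replicate 2 and SSZ1OEΔire1Δscj1 replicate 2. For all genes it was 203 with spike-in scaling, 252 with slide row as a block, 377 with only the groups compared, 75 within slide row 1, 60 to 1504 with 1 array left out, and 1971 without both arrays. In SSZ1OEΔire1Δscj1 against Δire1 the chaperone count was 1 with quantile normalization, 0 with spike-in scaling, 1 with slide row as a block and 1 to 2 with 1 array left out. All genes gave 1065 with the row block, 1156 within slide row 2, and 1438 to 3166 with 1 array left out, and 3237 without both arrays. In SSZ1OEΔire1Δscj1 against SSZ1OEΔire1 the chaperone count was 0 with spike-in scaling, 0 with the row block, 0 to 3 with 1 array left out, and 5 without both arrays. All genes gave 161, 2 and 3 to 1526 in those settings, and 1528 without both arrays.

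Median and spike-in scaling move every gene of a comparison by the same amount, so a sign that turned under them turned by that shift alone; relative to the median of all genes HSP10 (−0.14), MDJ1 (−0.031), HSP78 (0.061) and MGE1 (−0.12) in SSZ1OEΔire1Δscj1 against Δire1 were the same under both as reported. Apart from SSA2 and TIM18, which turned with that shift, values that changed sign had not passed the test. In SSZ1OEΔire1Δscj1 against Δire1, HSP10 turned to 0.0023 with quantile normalization, 0.29 with spike-in scaling, 0.040 with the row block and within row 2, 0.10 without both arrays, and ran from −0.23 to 0.012 with 1 array left out. MDJ1 turned to 0.40 with spike-in scaling and 0.011 with the row block and within row 2, and ran from −0.21 to 0.14 with 1 array left out. HSP78 turned to −0.023 with median scaling and −0.17 without both arrays, and ran from −0.29 to 0.27. MGE1 turned to 0.32 with spike-in scaling and 0.10 without both arrays, and ran from −0.19 to 0.036, and SSA2 turned to 0.058 with spike-in scaling. In SSZ1OEΔire1Δscj1 against SSZ1OEΔire1, MGE1 turned to −0.0049 with median scaling and ran from −0.051 to 0.13, MDJ1 turned to 0.12 and TIM18 to 0.014 with spike-in scaling, and SSZ1 turned to 0.073 with quantile normalization. The causes of the changes of sign under the other settings were not tested.

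Higher against lower calls over all genes were 467 to 242 in SSZ1OEΔire1 against Δire1, but 339 to 377 with quantile normalization, 371 to 346 with median scaling and 182 to 21 with spike-in scaling. In SSZ1OEΔire1Δscj1 against Δire1 they were 1333 to 1057, but 943 to 1381, 989 to 1573 and 2021 to 43. In SSZ1OEΔire1Δscj1 against SSZ1OEΔire1 they were 392 to 348, but 424 to 652 with normexp background correction and 150 to 11 with spike-in scaling. A fit within slide rows was not possible between the overexpressing strains, which share no row.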

Other observations

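The genes next to each member in the RefSeq gene order were read after the data had been seen. Of all genes, limma called 38.3% in SSZ1OEΔire1Δscj1 against Δire1 and 11.4% in SSZ1OEΔire1 against Δire1. Between the overexpressing strains it called 11.9%. YAP6, a transcription factor gene of the Yap family beside HSP78, rose by 0.79 in SSZ1OEΔire1Δscj1 against Δire1 (SE 0.12, limma adjusted p = 0.00306) and by 1.41 in SSZ1OEΔire1 against Δire1 (SE 0.13, adjusted p = 0.0029), and fell by 0.62 in SSZ1OEΔire1Δscj1 against SSZ1OEΔire1 (SE 0.13, adjusted p = 0.0285). RKM4, on the other side of HSP78, differed by −0.18, −0.016 and −0.16 in these comparisons and was not called. Beside HSP60, which fell in SSZ1OEΔire1Δscj1 against Δire1, LCB5, a sphingoid base kinase gene, rose by 0.59 (SE 0.12, adjusted p = 0.00832) and GSY2, a glycogen synthase gene, differed by 0.083 (adjusted p = 0.679). Beside HSP10, YOR019W rose by 0.60 (adjusted p = 0.014) and MCO10 by 0.74 (adjusted p = 0.00766) in the same comparison. Both neighbours of SSC1 (VPS55 and TAH11), of MDJ1 (GNA1 and YFL015C) and of MGE1 (MKK1 and KIN4) missed the threshold there, while VPS55 rose by 0.28 in SSZ1OEΔire1 against Δire1 (adjusted p = 0.0382). No neighbour overlapped its member in the RefSeq table.

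LEU2, a marker gene often carried on plasmids, stood at 2.46, 2.12 and 2.22 in SSZ1OEΔire1Δscj1, at 2.43 and 2.42 in SSZ1OEΔire1, and at 0.48, −0.021 and 2.73 in Δire1. Δire1 replicate 3 lay above the other 2 arrays of its strain by more than 2 log2 units.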
